A study of Mus musculus with 6 samples.

Results

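The expression of 10 genes that act as feedback inhibitors of Wnt signalling or are induced by it was examined in heart ventricles of newborn mice with a knockout of Med12 in the heart. The genes were fixed by name, with earlier results of these data known, as Nkd1, Nkd2, Dkk2, Dkk3, Axin2, Lef1, Tcf7, Rnf43, Znrf3 and Apcdd1. All 10 were found among the 24062 gene symbols of the count table. RNA-seq had been run on 6 libraries from both ventricles of male C57/Bl6N mice at 1 day of age (P1), of which 3 were Med12cKO, a heart-specific knockout in mice carrying Cre recombinase (CrePOS), and 3 were control mice without Cre (CTL, CreNEG). The promoter that drives Cre, and whether the CTL mice carried the targeted Med12 allele, are not given in the sources used here. Because only Med12cKO mice had Cre, the loss of Med12 and Cre itself cannot be told apart. In whole ventricles, fewer cells of a type and less RNA per cell cannot be told apart either.

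Wnt proteins bind Frizzled receptors together with the co-receptors LRP5 and LRP6. This disables the destruction complex, built around Axin and APC, so that β-catenin accumulates and joins TCF and LEF proteins on DNA. Several of the genes switched on in this way, among them Axin2, Nkd1, Rnf43 and Znrf3, encode proteins that dampen the pathway, and their level is therefore widely read as a gauge of signalling. In the heart the pathway acts in stages, in the specification of the precursor cells and later in valve and chamber growth. Med12 is a subunit of the Mediator kinase module, and in other cell systems it has been described as a contact between Mediator and β-catenin.

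Promoter sequences were taken from RefSeq on the mouse build GRCm38.p6 and span 300 bases around a gene start listed there, most of them before it. They matched 7 of the 10 genes. The core of the TCF and LEF binding motif was searched as CTTTGA and as CTTTGT on both strands. These differ in their last base and so cannot match at the same place. Of 32851 mouse promoters of this length, 5257 held CTTTGA and 6147 (18.7%) held CTTTGT. Dkk2 held the only match among the 7 gene promoters (1 site, CTTTGT on the forward strand, shown in capitals), where for genes with several listed starts the most upstream was taken. For Nkd1 and Rnf43 the window began downstream of the gene start given below. That of Nkd1 (chr8:88527383-88527682, plus strand) lay inside the gene, which starts at 88521354. The sequence before that start of Nkd1 was therefore not searched. The promoter of Nkd2 (chr13:73847582-73847881, minus strand) is shown because this gene differed most clearly between the groups. That of Axin2 (chr11:108920099-108920398, plus strand) is shown as that of the most widely used target gene, and that of Dkk2 (chr3:132085042-132085341, plus strand) for its match. A missing match says only that these letters do not occur in this window.
Nkd2: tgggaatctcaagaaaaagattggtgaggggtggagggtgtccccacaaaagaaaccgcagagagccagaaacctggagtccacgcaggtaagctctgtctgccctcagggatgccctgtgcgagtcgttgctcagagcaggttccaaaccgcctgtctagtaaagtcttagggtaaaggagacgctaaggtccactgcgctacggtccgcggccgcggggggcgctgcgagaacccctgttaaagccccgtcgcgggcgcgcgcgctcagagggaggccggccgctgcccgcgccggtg
Axin2: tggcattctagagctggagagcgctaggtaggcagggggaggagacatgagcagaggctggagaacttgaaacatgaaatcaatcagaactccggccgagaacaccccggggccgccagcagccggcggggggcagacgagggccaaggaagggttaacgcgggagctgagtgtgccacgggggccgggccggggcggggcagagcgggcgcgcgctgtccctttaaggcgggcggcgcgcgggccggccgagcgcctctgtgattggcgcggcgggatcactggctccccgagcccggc
Dkk2: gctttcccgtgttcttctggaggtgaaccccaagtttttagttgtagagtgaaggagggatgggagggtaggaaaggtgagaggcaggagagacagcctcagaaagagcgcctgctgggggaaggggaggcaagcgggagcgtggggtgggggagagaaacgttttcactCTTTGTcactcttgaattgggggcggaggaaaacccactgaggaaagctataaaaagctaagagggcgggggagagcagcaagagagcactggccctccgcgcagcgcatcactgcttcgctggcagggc

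The libraries held between 8453346 and 10911698 counts, and levels are given as CPM, counts divided by library size after TMM scaling, a correction for differences in library composition. Med12 itself measured 61.6, 85.0 and 41.3 CPM in Med12cKO replicates 1 to 3 and 103, 176 and 113 CPM in CTL replicates 1 to 3, without overlap. Its fitted log2 change of −1.06 (SE 0.30) missed the threshold over all genes in edgeR (adjusted p = 0.765) and passed it in DESeq2 (adjusted p = 0.0246). Cardiomyocyte markers were abundant in every library, with a sum over 10 genes of 33800 to 42880 CPM in Med12cKO and 41770 to 54630 CPM in CTL. T-cell transcripts were found in 1 library of each group. The 10 T-cell markers averaged 78.8 CPM in Med12cKO replicate 1 and 78.8 CPM in CTL replicate 3, against 0.333 to 0.529 CPM in the other 4 libraries. Lung markers (5 genes) summed to 81.2 CPM in Med12cKO replicate 2 and 52.1 CPM in CTL replicate 1, both marked J in their sample description, and to at most 0.564 CPM in the 4 libraries marked I. Skeletal muscle markers summed to 228.8 CPM in Med12cKO replicate 1 and to 31.1 to 43.6 CPM in the other 5 libraries. Summed markers of fibroblasts, epicardium, endothelium and macrophages overlapped between the groups.

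Of the 10 genes, Nkd2 stood higher and Dkk3 lower in every Med12cKO library than in any CTL library, and the other 8 overlapped between the groups. All 10 passed the filter on low counts and entered a test of 13629 genes. None of the 10 passed edgeR's quasi-likelihood test at an adjusted p under 0.05, where 3 genes did (0.0220% of those tested, with 0.00734% higher and 0.0147% lower in Med12cKO). Limma-voom also called 0 of the 10, against 0.0293% of all genes. At an unadjusted p under 0.05 edgeR gave 2 of the 10, 1 higher and 1 lower, against 3.78% of all genes tested (2.16% higher and 1.61% lower). DESeq2 called 2 of the 10, Nkd2 and Dkk3, against 0.508% of the 12795 genes to which it gave an adjusted p. Lef1, Tcf7 and Rnf43 were given no adjusted p by DESeq2. Groups that do not overlap were seen in 2 of the 10 and in 8.23% of all genes tested (Med12cKO above in 4.59% and below in 3.64%). In a fit of the 4 libraries without T-cell transcripts, 2 of the 10 (Nkd2 and Dkk3) had an unadjusted p under 0.05, against 2.37% of 13643 genes, and 0 of the 10 an adjusted p under 0.05, against 0.0293%. The median log2 change of the 10 was 0.10, and that of all genes tested was 0.01.

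**Figure D1:**
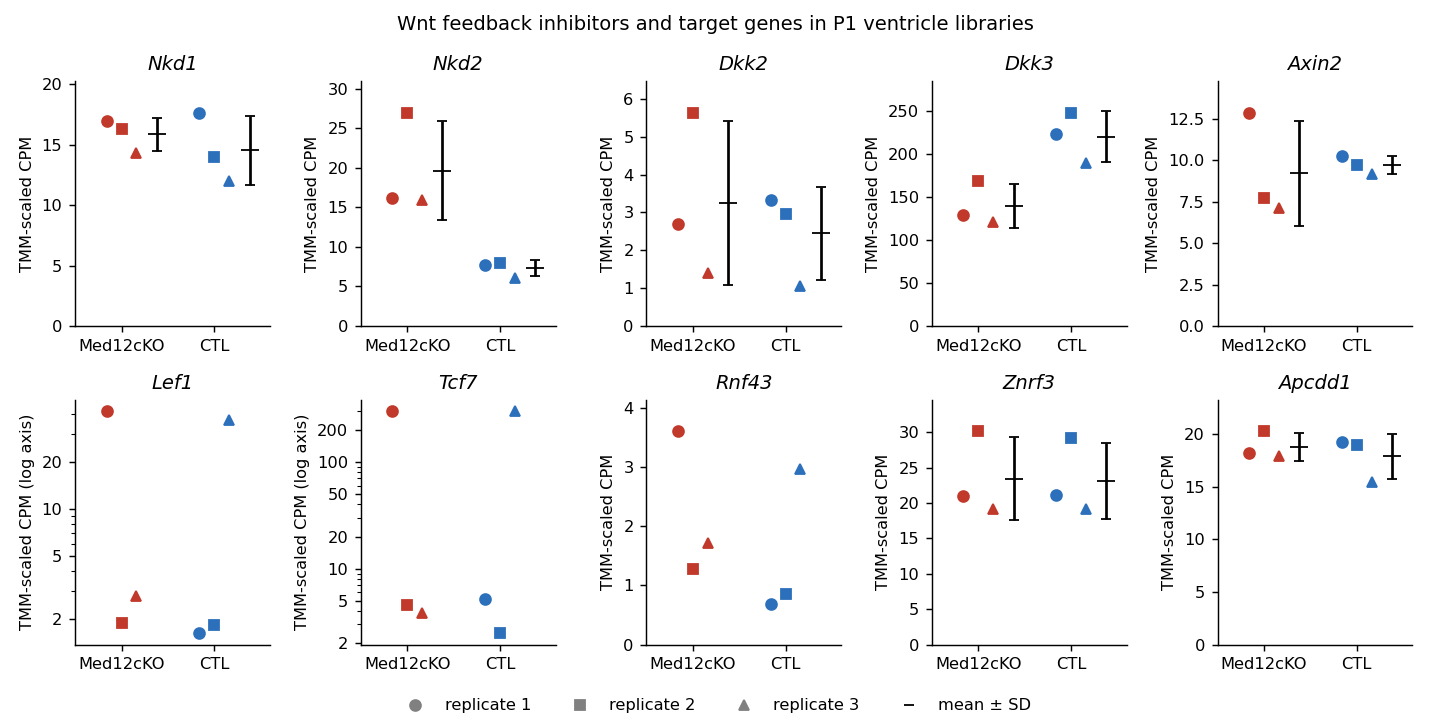
TMM-scaled CPM of the 10 genes (y axis, from 0, or on a log axis for Lef1 and Tcf7) in the 3 Med12cKO (red, left) and 3 CTL libraries (blue, right); symbols give the replicate, and bars the mean ± SD (n = 3), left out for Lef1, Tcf7 and Rnf43. The Med12cKO libraries lie at 15.9 to 26.9 CPM for Nkd2, above all CTL libraries, and at 121 to 169.5 CPM for Dkk3, below all of them.

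Nkd1 and Nkd2 encode the Naked cuticle proteins, which bind Dishevelled inside the cell and limit the signal that reaches the destruction complex. Nkd2 (chromosome 13, 73818534 to 73847631, minus strand, protein coding) measured 16.1, 26.9 and 15.9 CPM in Med12cKO replicates 1 to 3 and 7.71, 8.003 and 6.12 CPM in CTL replicates 1 to 3. The lowest Med12cKO library thus lay well above the highest CTL library, and Med12cKO replicate 2 was the highest of all. The mean was 19.7 ± 6.30 CPM in Med12cKO and 7.28 ± 1.01 CPM in CTL (SD, n = 3 each), a 2.70-fold difference. The fitted log2 change was 1.43 (SE 0.25, 95% interval 0.88 to 1.99), with the gene at rank 22 by p among 13629. The adjusted p was 0.129 in edgeR and 0.000388 in DESeq2.

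The difference in Nkd2 had the same direction in each way of dividing the libraries. Between the libraries with T-cell transcripts, 1 of each group, the log2 ratio was 1.40. Among the other 4 it was 1.45. Within the libraries of letter I it was 1.18 (n = 2 each), and between those of letter J, which also held the lung transcripts, it was 1.80 (n = 1 each). Smooth muscle and pericyte markers were set beside Nkd2, and 6 of the 9 had a positive log2 change, as 7110 of all 13629 genes tested did. Acta2, Cnn1 and Tagln, 3 of the 9, were higher at an unadjusted p under 0.05 and 0 were lower, where 2.16% of the tested genes were higher. Their sum, with none at 0 in any library, was 1721, 2464 and 1552 CPM in Med12cKO replicates 1 to 3 and 1607, 1295 and 1059 CPM in CTL replicates 1 to 3. The sum, like Nkd2, was highest in Med12cKO replicate 2, but unlike Nkd2 it overlapped between the groups. Without Acta2, the most abundant of them, the other 8 summed to 795.2, 1236 and 799.6 CPM in Med12cKO and 800.7, 929.9 and 770.8 CPM in CTL, which also overlap. Cnn1, which encodes the smooth muscle protein calponin, was the 1 gene that edgeR called higher, at 74.9, 116.2 and 84.7 CPM in Med12cKO and 34.2, 23.9 and 27.2 CPM in CTL (adjusted p = 0.0464). The part of these markers in the Nkd2 difference was not tested.

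Nkd1 (chromosome 8, 88521354 to 88594884, plus strand), the close paralog of Nkd2, measured 16.9, 16.3 and 14.3 CPM in Med12cKO libraries and 17.6, 14.005 and 11.955 CPM in CTL libraries. Its groups overlapped, and CTL replicate 1 was the highest of the 6. The log2 change was 0.13 (SE 0.19, 95% interval −0.30 to 0.55; edgeR adjusted p = 0.9999). A ratio of 2 genes within a library does not depend on how libraries are scaled. The ratio of Nkd2 to Nkd1 counts was 0.953, 1.66 and 1.11 in Med12cKO and 0.438, 0.571 and 0.512 in CTL, so the groups did not overlap here either. On average the ratio was 2.39-fold higher in Med12cKO, a log2 difference of 1.26. An exact two-sided permutation test gave p = 0.10, the smallest that 3 against 3 libraries allow, or 0.25 after Benjamini-Hochberg adjustment over the 5 ratios examined.

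**Figure D2:**
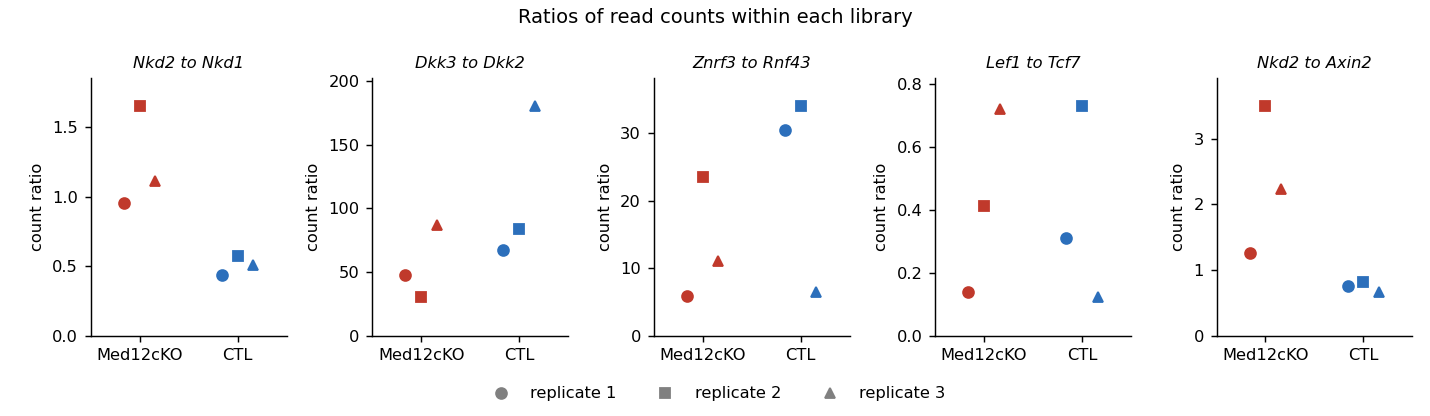
Ratio of read counts of 2 genes within each library (y axis, linear, from 0) for 5 pairs, with Med12cKO (red) left of CTL (blue) and symbols for the replicate. The Nkd2 to Nkd1 ratio is at least 0.953 in Med12cKO and at most 0.571 in CTL, and the Nkd2 to Axin2 ratio also separates the groups, while the other 3 overlap.

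Dkk2 and Dkk3 encode secreted Dickkopf proteins. Dkk2 binds LRP5 and LRP6, whereas Dkk3 is a divergent member whose role in Wnt signalling is less settled. Dkk3 (chromosome 7, 112116017 to 112159057, minus strand) was by far the most abundant of the 10 in ventricles without T-cell transcripts. It measured 129.8, 169.5 and 121 CPM in Med12cKO libraries and 224, 248 and 189.7 CPM in CTL libraries. Every Med12cKO library lay below every CTL library, with means of 140.1 ± 25.8 CPM in Med12cKO and 220.7 ± 29.4 CPM in CTL (SD, n = 3 each), so that Med12cKO reached 63.5% of CTL. The log2 change was −0.65 (SE 0.16, 95% interval −1.02 to −0.29), with an adjusted p of 0.468 in edgeR and 0.0343 in DESeq2. Within the libraries of letter I the log2 ratio was −0.80 (n = 2 each) and between those of letter J −0.40 (n = 1 each). In the 4 libraries without T-cell transcripts the fitted value was −0.71 (edgeR adjusted p = 1), and DESeq2 no longer called Dkk3 (adjusted p = 0.478) and left the adjusted p of Nkd2 undefined.

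Muscle markers were set beside Dkk3. Cardiomyocyte markers summed to 33800, 41780 and 42880 CPM in Med12cKO and 53350, 54630 and 41770 CPM in CTL, which overlap. Without Myh6, the most abundant of them, the other 9 summed to 25550, 29170 and 34150 CPM in Med12cKO. In CTL they summed to 43030, 37960 and 30350 CPM, so the groups also overlapped. Of the 10, 9 had a negative log2 change, as 6519 of all 13629 genes tested did. Ryr2 and Myh7 were lower at an unadjusted p under 0.05 in edgeR (1.61% of all genes), and 0 were higher. DESeq2 called 1 (0.508% of all genes). In 2 of the 10 every Med12cKO library lay below every CTL library (3.64% of all genes). Of 14 atrial markers, all tested and none at 0 in any library, 11 had a negative log2 change and 3 a positive one. Of the 14, 7 were lower at an unadjusted p under 0.05 in edgeR and 0 at an adjusted p under 0.05, where the tested genes gave 1.61% and 0.0147%. DESeq2 called 4, against 0.508% of all genes. In 6 of the 14 every Med12cKO library lay below every CTL library, as Dkk3 did, against 3.64% of all genes. The sum of the 14 was 3705, 3813 and 5314 CPM in Med12cKO and 5055, 5237 and 3943 CPM in CTL, which overlap. Nppa, which encodes atrial natriuretic peptide and was the most abundant of them, measured 1787, 1677 and 3213 CPM in Med12cKO and 2039, 2283 and 1579 CPM in CTL. Without Nppa, left out after its values were seen, the other 13 summed to 1918, 2136 and 2101 CPM in Med12cKO and 3016, 2954 and 2364 CPM in CTL, so that every Med12cKO library lay below every CTL library. The part of these markers in the Dkk3 difference was not tested.

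Dkk2 (chromosome 3, 132085292 to 132180304, plus strand) was read by few counts, 24, 57 and 13 in Med12cKO libraries and 29, 31 and 11 in CTL libraries. This corresponds to 2.71, 5.62 and 1.40 CPM in Med12cKO and 3.34, 2.95 and 1.05 CPM in CTL. The groups overlapped, with replicate 3 lowest in each. The log2 change of 0.42 (SE 0.57, 95% interval −0.87 to 1.71; edgeR adjusted p = 0.9999) turned to −0.25 without Med12cKO replicate 2, a library that held lung transcripts. Schwann cell and neural markers summed to 95.5, 68.7 and 20.02 CPM in Med12cKO and 28.3, 52.6 and 21.3 CPM in CTL, and were likewise low in replicate 3 of both groups. Their part in the Dkk2 level was not tested. The ratio of Dkk3 to Dkk2 counts was 48.0, 30.1 and 86.5 in Med12cKO and 67.2, 84.0 and 180.3 in CTL (exact permutation p = 0.30, adjusted p = 0.50).

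Axin2, a scaffold of the destruction complex, did not differ beyond the spread between libraries. Axin2 (chromosome 11, 108920349 to 108950783, plus strand) measured 12.9, 7.70 and 7.10 CPM in Med12cKO and 10.2, 9.72 and 9.18 CPM in CTL. The CTL libraries lay close together, while Med12cKO held both the highest and the 2 lowest values of the 6. The log2 change was −0.08 (SE 0.25, 95% interval −0.64 to 0.49; edgeR adjusted p = 0.9999). The high value was that of Med12cKO replicate 1, a library with T-cell and skeletal muscle transcripts. In the 4 libraries without T-cell transcripts Axin2 was at 7.52 and 6.94 CPM in Med12cKO and 10.03 and 9.55 CPM in CTL. The log2 change there was −0.44 (SE 0.29, edgeR unadjusted p = 0.15, adjusted p = 1). Like Nkd2, Dkk3, Rnf43 and Lef1, Axin2 did not overlap between the groups there. With 2 libraries in each group this says little, and the share of all genes that did so was not computed. The part of T-cell and skeletal muscle transcripts in the Axin2 level was not tested. Nkd2 and Axin2 are both feedback inhibitors, yet the ratio of their counts was 1.25, 3.50 and 2.24 in Med12cKO and 0.753, 0.824 and 0.667 in CTL, without overlap. Its log2 difference was 1.52 (exact two-sided permutation p = 0.10, the smallest possible here, adjusted p = 0.25). Like the ratio to Nkd1, this ratio contains the Nkd2 counts and is no separate support for the difference in Nkd2. An opposite-strand gene model covers 3.8% of the exon bases of Axin2.

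Rnf43 and Znrf3 encode membrane ubiquitin ligases that remove Frizzled receptors from the cell surface. Znrf3 (chromosome 11, 5276324 to 5444847, minus strand) measured 21.0, 30.1 and 19.2 CPM in Med12cKO and 21.1, 29.2 and 19.1 CPM in CTL. Replicate 2 was the highest in each group, and the groups overlapped nearly completely. The log2 change was 0.02 (SE 0.22, 95% interval −0.48 to 0.51; edgeR adjusted p = 0.9999). Rnf43 (chromosome 11, 87662722 to 87735539, plus strand) was read by 32, 13 and 16 counts in Med12cKO and 6, 9 and 31 counts in CTL, which is 3.61, 1.28 and 1.72 CPM in Med12cKO and 0.690, 0.857 and 2.97 CPM in CTL. Its highest value in each group was that of the library with T-cell transcripts. In the other 4 libraries Rnf43 was at 1.25 and 1.68 CPM in Med12cKO and 0.676 and 0.843 CPM in CTL, with a log2 change of 0.93 (SE 0.57; edgeR unadjusted p = 0.125, adjusted p = 1). Over all 6 the log2 change was 0.52 (SE 0.61, 95% interval −0.87 to 1.91; edgeR adjusted p = 0.9999). The ratio of Znrf3 to Rnf43 counts was 5.81, 23.5 and 11.1 in Med12cKO and 30.5, 34.0 and 6.45 in CTL (exact permutation p = 0.50, adjusted p = 0.625).

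Apcdd1, a membrane glycoprotein that binds Wnt proteins at the cell surface, was the steadiest of the 10. Apcdd1 (chromosome 18, 62922231 to 62961179, plus strand) measured 18.2, 20.2 and 17.9 CPM in Med12cKO and 19.2, 19.0 and 15.4 CPM in CTL. The groups overlapped, and the log2 change was 0.07 (SE 0.16, 95% interval −0.29 to 0.43; edgeR adjusted p = 0.9999).

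**Figure D3:**
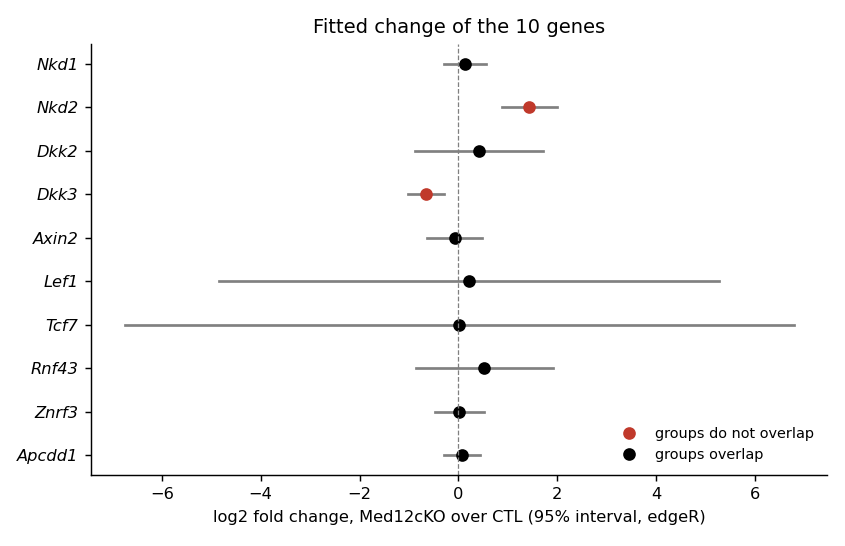
Fitted log2 change of the 10 genes, Med12cKO over CTL (x axis), with the 95% interval of edgeR's quasi-likelihood fit (n = 3 libraries each); red points mark genes whose groups do not overlap. The intervals of Nkd2 (0.88 to 1.99) and Dkk3 (−1.02 to −0.29) lie away from 0 before adjustment over all genes, and those of Lef1 and Tcf7 are the widest.

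Lef1 and Tcf7 encode the DNA-binding partners of β-catenin, and both are also central transcription factors of developing T cells. Both were high in the library of each group that held T-cell transcripts. Tcf7 (chromosome 11, 52252371 to 52283014, minus strand) measured 301.5, 4.54 and 3.87 CPM in Med12cKO replicates 1 to 3 and 5.18, 2.48 and 296.2 CPM in CTL replicates 1 to 3. Lef1 (chromosome 3, 131110471 to 131224356, plus strand) measured 42.2, 1.87 and 2.80 CPM in Med12cKO and 1.61, 1.81 and 36.6 CPM in CTL. Across the groups, the mean of those 2 libraries was 74.4 times that of the other 4 for Tcf7, 19.5 times for Lef1 and 2.89 times for Rnf43, while for the remaining 7 genes it was between 0.565 and 1.27 times. Tcf7 amounted to 38.3% and Lef1 to 5.35% of the summed T-cell markers in Med12cKO replicate 1, and to 37.6% and 4.65% in CTL replicate 3. Of all genes tested, 39 (0.286%) were over 10-fold higher in these 2 libraries. Only 2 of the 10 T-cell markers passed the filter on low counts. This share therefore leaves out genes that, like the other markers, were read almost only in these 2 libraries.

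With T-cell transcripts in 1 library of each group, the comparison of genotypes over all 6 libraries had very wide intervals for both factors. The log2 change was 0.02 for Tcf7 (SE 2.50, 95% interval −6.75 to 6.79) and 0.21 for Lef1 (SE 1.88, 95% interval −4.85 to 5.28), each with an edgeR adjusted p of 0.9999, and DESeq2 left both undefined. In the 4 other libraries Tcf7 was at 4.44 and 3.79 CPM in Med12cKO and 5.07 and 2.43 CPM in CTL (log2 change 0.14, SE 0.41; edgeR adjusted p = 1). Lef1 was at 1.83 and 2.74 CPM in Med12cKO and 1.58 and 1.78 CPM in CTL (log2 change 0.43, SE 0.47; edgeR adjusted p = 1). These rest on 19 and 26 counts of Lef1 in Med12cKO and 14 and 19 in CTL, and an opposite-strand gene model covers 13.7% of the exon bases of Lef1. The ratio of Lef1 to Tcf7 counts was 0.140, 0.413 and 0.722 in Med12cKO and 0.311, 0.731 and 0.124 in CTL (exact permutation p = 0.80, adjusted p = 0.80).

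**Figure D4:**
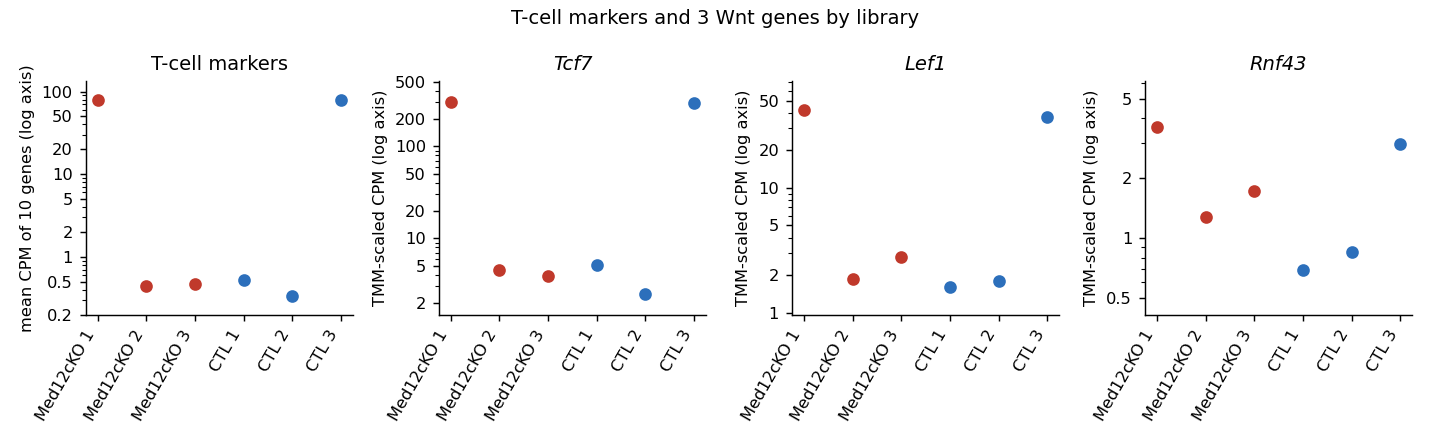
Mean CPM of 10 T-cell markers and TMM-scaled CPM of Tcf7, Lef1 and Rnf43 (y axes, log scale) in each library, with Med12cKO in red and CTL in blue. Med12cKO replicate 1 and CTL replicate 3 stand out in all 4 panels, with 78.8 CPM of T-cell markers in each.

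Levels of different genes were compared per length, as CPM per kilobase of annotated exon, in the 4 libraries without T-cell transcripts. Dkk3 led with a median of 58.6 (36.0 to 73.9), far above the others. Nkd1 (median 3.36, from 3.07 to 3.86), Znrf3 (3.18, from 2.43 to 3.81) and Nkd2 (2.48, from 1.598 to 5.58) followed and overlapped in range. The range of Nkd2 spans groups that differ, and it also overlapped those of Tcf7 and Axin2. In CTL replicates 1 and 2 Nkd2, at 1.598 and 1.66, lay below Axin2, at 1.86 and 1.765. Tcf7 (from 0.944 to 1.97), Axin2 (1.58, from 1.29 to 1.86) and Apcdd1 (1.48, from 1.39 to 1.57) could not be ordered among themselves, nor could Dkk2 (0.849, from 0.378 to 1.52) be set apart from them. Lef1 (0.210, from 0.183 to 0.318) and Rnf43 (0.163, from 0.105 to 0.263) were lowest and overlapped. Nkd2 lay above Nkd1 in Med12cKO replicates 2 and 3, where it was at 5.58 and 3.30, but only slightly in replicate 3. It lay below Nkd1 in CTL replicates 1 and 2. In Med12cKO replicate 1, left out here for its T-cell transcripts, Nkd2 (3.34) also lay below Nkd1 (3.71). The order of these genes therefore did not separate the groups.

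Outside the 10, none of 107 tested genes in 8 lists of other Wnt pathway genes passed edgeR over all genes, and DESeq2 called 0 of them. At an unadjusted p under 0.05 there were 6 (5.61%), 4 higher and 2 lower in Med12cKO, against 3.78% of all genes tested. Their groups did not overlap in 7 (6.54%), against 8.23%. The median log2 change was 0.02. Of the 6, 4 lay among the 12 tested antagonists that act outside the cell or at its surface, where the median was 0.35. They were Sfrp5, Sost and Wif1, which stood higher, and Trabd2b, a membrane protease that inactivates Wnt proteins, which stood lower. Wif1 and Sost were named after their values were seen.

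Sfrp5, a secreted protein that binds Wnt ligands, measured 7.56, 8.59 and 7.75 CPM in Med12cKO and 3.57, 4.95 and 4.50 CPM in CTL. The groups did not overlap, and the log2 change was 0.87 (SE 0.22; edgeR adjusted p = 0.497, DESeq2 adjusted p = 0.39). Trabd2b measured 44.2, 65.9 and 43.3 CPM in Med12cKO and 86.5, 121.9 and 71.3 CPM in CTL, without overlap and with a log2 change of −0.87 (SE 0.24; edgeR adjusted p = 0.632, DESeq2 adjusted p = 0.052). Sost, which encodes the LRP5 and LRP6 ligand sclerostin, overlapped between the groups (21.2, 49.1 and 32.8 CPM in Med12cKO, 22.4, 20.1 and 20.3 CPM in CTL). Wif1, a secreted Wnt-binding protein, was at 18.5, 16.5 and 25.2 CPM in Med12cKO and 13.4, 14.8 and 15.5 CPM in CTL, without overlap. Neither Sost nor Wif1 passed edgeR or DESeq2 over all genes (edgeR adjusted p = 0.9999 for each).

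Among 18 tested target genes outside the 10, 3 had groups that did not overlap, Ephb3 above and Jun and Tbx3 below CTL, against 8.23% of all genes tested (4.59% above and 3.64% below). Of these, Tbx3 was named after its values were seen. It measured 16.9, 18.5 and 18.7 CPM in Med12cKO and 25.6, 21.0 and 19.0 CPM in CTL. Its log2 change was −0.275 (SE 0.161, edgeR unadjusted p = 0.12). Ephb3, an ephrin receptor, averaged 54.9 ± 7.04 CPM in Med12cKO and 40.6 ± 3.07 CPM in CTL, and Jun, a subunit of the AP-1 transcription factor, 97.9 ± 7.14 CPM in Med12cKO and 128.2 ± 11.98 CPM in CTL (SD, n = 3 each; edgeR adjusted p = 0.751 for each). The median over the target list was −0.01. Of the remaining lists, ligands and their secretion (11 tested), receptors (15), R-spondins and their receptors (5), the destruction complex with Dishevelled (17), nuclear partners (17) and planar cell polarity (12) had 0 genes at an unadjusted p under 0.05. Their medians ran from −0.08 for planar cell polarity to 0.18 for ligands. The genes with the smallest p in these lists were Wls and Wnt5a (log2 changes of 0.21 and 0.27), Ror2 and Fzd2 (0.33 and 0.24), Lgr6 and Lgr4 (−0.53 and 0.10), Apc and Dvl2 (0.15 and −0.14), Bcl9l and Bcl9 (−0.24 and −0.16), and Vangl2 and Celsr2 (−0.30 and −0.25). Ctnnb1, which encodes β-catenin and was named for that role, averaged 817.1 ± 49.4 CPM in Med12cKO and 808.4 ± 9.51 CPM in CTL.

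**Figure D5:**
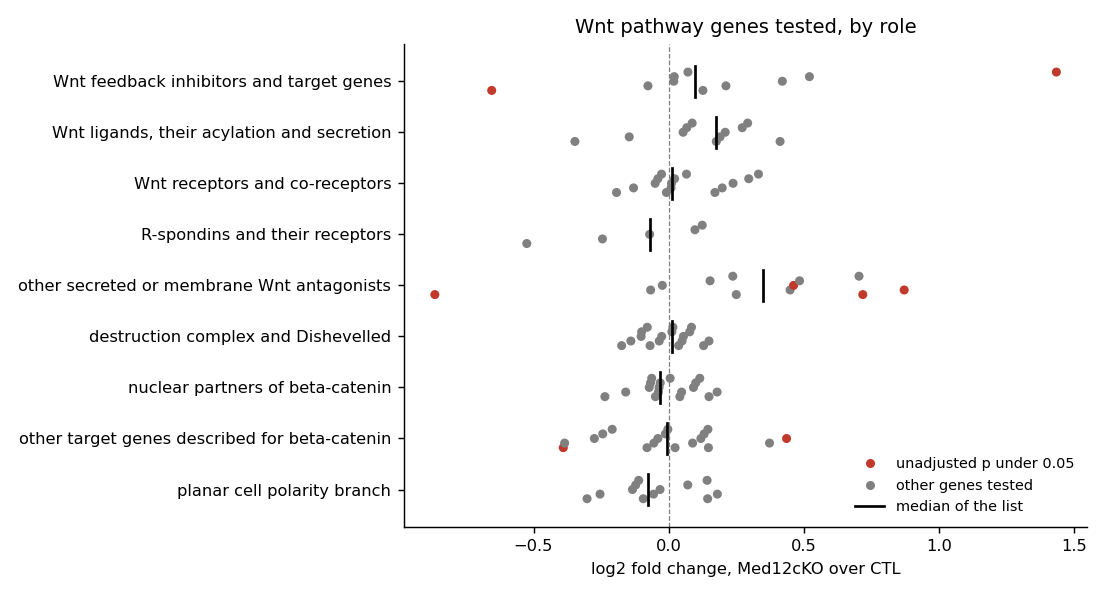
Fitted log2 change, Med12cKO over CTL (x axis), of each tested gene of the 10 and of 8 lists of other Wnt pathway genes (rows); red points have an unadjusted p under 0.05 and black bars are list medians. Most points lie near 0, Nkd2 at 1.43 is the farthest to the right, and the antagonist list holds 4 red points.

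Genes with the most similar profile over the 6 libraries were picked by the smallest root mean square difference between log2 CPM profiles, each centred on its own mean. All genes share the libraries and their scaling, and with 6 libraries such likeness is a description. For Nkd2 the nearest were AI414108 (0.135), Slc1a1 (0.155) and Npas4 (0.184), each highest in Med12cKO replicate 2 and lower in all CTL libraries. For Dkk3 they were the calcium pump gene Atp2a2 (0.0797), 4933408B17Rik (0.0941) and Tmem88b (0.0952). The nearest to Tcf7 were the T-cell genes Lck (0.252), Cd4 (0.418) and Rasgrp1 (0.514), and to Lef1 they were Ccl25 (0.164), Traf3ip3 (0.330) and Rasal3 (0.334). Dkk2 was closest to Stmn2 (0.246), Prph (0.251) and L1cam (0.284), genes known from neurons. Znrf3 was closest to Spon1 (0.0205), Col4a5 (0.0414) and Atp8b2 (0.0423), which shared its high values in replicate 2 of both groups.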

How the data were processed

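Per the submitters' processing notes, reads were processed with TopHat2 2.0.0, featureCounts and edgeR 3.14.0 on GRCm38 (mm10). The authors deposited whole-number read counts for each gene symbol, not normalized. The annotation, strand setting and filters are not given in the sources used here, so reads of overlapping genes may have been split. Groups and replicate numbers came from the sample titles. Nothing in the labels states that each library is 1 animal, and p-values therefore reflect only how far these samples vary. Libraries of a group differed by more than counting noise (chi-square over degrees of freedom between 15.3 and 31.0).

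Genes were tested with the quasi-likelihood F test of edgeR 4.0.16 (R 4.3.3, robust, TMM, filterByExpr with a minimum count of 10 and total of 15), with Benjamini-Hochberg adjustment over all 13629 genes tested and a threshold of 0.05. SE was derived from the log2 change and F (their quotient after taking the root of F), and CPM uses the scaling of the tested genes. DESeq2 1.42.0, limma-voom (limma 3.58.1), other scalings, filters, blocks and left-out libraries were alternatives. A library counted as holding T-cell transcripts when 10 T-cell markers averaged at least 10 CPM. Count ratios were compared by exact two-sided permutation over the 20 arrangements of libraries. Positions and exon lengths are GENCODE M21 (GRCm38, 1-based), and promoters are RefSeq's.

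The genes and lists were chosen with earlier results of these data known, and no list was tested as a set. Besides the 10 genes, Med12 and markers, the text names the 2 tested genes of each Wnt list with the smallest p, and the 3 nearest profiles (log2 of CPM plus 0.1, average log2 CPM of at least 1). The scripts were tested on simulated data. There, with 13501 genes tested, DESeq2 called 38 genes that had been given no change, edgeR 13 and limma-voom 11. Of the simulated 2-fold changes, DESeq2 recovered 66%, edgeR 60% and limma-voom 58%. The simulated libraries did not differ in T-cell, lung or skeletal muscle transcripts, so these shares do not carry over to the real libraries.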

Additional observations from a re-analysis of the deposited data

How the results depend on the processing

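Nkd2 stayed higher in all 17 alternatives (log2 change 1.14 to 1.56, adjusted p 0.000388 to 0.863) and Dkk3 lower in all 17 (−0.82 to −0.56, adjusted p 0.0343 to 1). DESeq2 called both and the other 16 alternatives called neither. The number of the 10 genes called was 2 with DESeq2 and 0 otherwise. The number of genes called higher, 1 in edgeR with all libraries, was 32 with DESeq2, 2 with limma-voom, with library totals only, with T-cell transcripts as a covariate and without the libraries that hold them, and 0 when edgeR used the size factors of DESeq2, with the replicate block and in the libraries of letter I, and ranged from 0 (without Med12cKO replicate 3 or CTL replicate 1) to 1 when each library was left out in turn. The number called lower, 2 with all libraries, was 33 with DESeq2, 1 in the libraries of letter I and 1 (without Med12cKO replicate 3) to 2 when each library was left out. Deviations from the group means in libraries of the same number correlated across genes at −0.352, 0.465 and −0.379. The highest such correlation, 0.759, was between Med12cKO replicate 1 and CTL replicate 3, which both hold T-cell transcripts. With 3 libraries in each group, these values cannot show whether replicate numbers pair the libraries. With the replicate block the log2 change was 1.40 for Nkd2 (adjusted p = 0.168) and −0.66 for Dkk3 (adjusted p = 0.216), and neither was called. In the 4 libraries without T-cell transcripts the sign turned for Nkd1 (−0.05), Znrf3 (−0.03) and Apcdd1 (−0.01). With the description letter as a block it turned for Tcf7 (−0.01) and Znrf3 (−0.01), and in the libraries of letter I for Axin2 (0.09) and Znrf3 (−0.25). When each library was left out in turn, the range was 0.00 to 0.29 for Nkd1, −0.25 to 0.77 for Dkk2, −0.40 to 0.08 for Axin2, −2.55 to 3.17 for Lef1, −4.62 to 4.78 for Tcf7, −0.04 to 1.48 for Rnf43, −0.21 to 0.22 for Znrf3 and −0.03 to 0.13 for Apcdd1. The extremes of Lef1, Tcf7 and Rnf43 came from leaving out Med12cKO replicate 1 or CTL replicate 3, the libraries with T-cell transcripts. With each library left out in turn, the log2 difference of the Nkd2 to Nkd1 ratio was 1.03 to 1.43, of Nkd2 to Axin2 1.17 to 1.91, of Dkk3 to Dkk2 −1.40 to −0.59, of Znrf3 to Rnf43 −1.49 to −0.22 and of Lef1 to Tcf7 −0.46 to 0.84. Without both libraries with T-cell transcripts Nkd2 to Nkd1 (1.44) and Dkk3 to Dkk2 (−0.56) lay just outside these ranges and the other 3 within them. The cause of these shifts was not tested. Counts under 60 for Dkk2 and Rnf43 limit what these libraries can show of them.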
